A study of Mus musculus with 24 samples.

Results

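The genes described here are 46 genes of the cornified envelope and of squamous differentiation, the program by which the outer cells of a stratified epithelium such as the epidermis harden and die. They were chosen by name, keratins left out, and a gene was read on the array through the probe whose RefSeq accession maps to it. Of the 46 genes, 45 had a probe, out of 20145 genes with a probe on the array; *Flg*, the gene of filaggrin, had none matched. Where a gene had more than 1 probe, as 6 genes did, the probe with the highest mean signal stands for it. In this program small proline-rich proteins, involucrin, envoplakin and periplakin are laid down under the plasma membrane and joined by transglutaminases, ceramides and other lipids are attached to the outside, and proteases held back by inhibitors later cut the desmosomes that bind the dead cells. Grainyhead-like and other transcription factors switch on these genes. Mammary epithelium arises from the embryonic epidermis and normally makes milk rather than a cornified layer, but mammary cells can enter squamous metaplasia, in which such genes come on.

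The cells were HC11, a line of mouse mammary epithelium that goes back to COMMA-D cells of a mid-pregnant Balb/c animal, and the study asked which genes respond to *mPINC*, a long noncoding RNA of the mammary gland. RNA was read on 24 single-color Agilent arrays in 9 groups. Cells without lactogenic hormones (-LH) had received siRNAs at 10 nM: the control siNEG, siPINC1.0/1.6 against the splice forms *mPINC1.0* and *mPINC1.6*, or siPINC against all splice forms, with 2 arrays per group. Each of the 2 *mPINC* siRNA sets was a mix of 2 siRNAs, and the sets had an siRNA in common. The same 3 siRNA groups were repeated, with 3 arrays each, in cells given prolactin, insulin and hydrocortisone, the lactogenic hormones (+LH). A further 3 groups of 3 arrays were +LH cells carrying a LeGO lentivirus for GFP (LeGO-GFP), for *mPINC1.0* and *mPINC1.6* together (LeGO-1.0/1.6), or for a deletion mutant without the most conserved regions of *mPINC* (LeGO-DCR). The lentiviral cells were transduced populations that were expanded and frozen, not clones; whether the 3 arrays of such a group came from separate transductions is not given in the sources used here, and siRNA and lentivirus cells are compared only within their own kind. The growth medium held insulin, EGF and calf serum. Prolactin and hydrocortisone were added to a medium with insulin, stripped horse serum and no EGF, so insulin was in both media. The length of hormone treatment for the arrays and the medium of the -LH cells are not given in the sources used here.

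Values are log2 signals after quantile normalization, and a gene is called higher or lower where the limma p-value, adjusted by the Benjamini-Hochberg method over all 55681 probes, was under 0.05. The arrays had between 24021 and 35798 probes well above background, which is the scanner software's own test of a spot against its surroundings. The *mPINC* probe fell from 7.41 and 7.48 on the siNEG -LH arrays to 6.27 and 6.39 with siPINC1.0/1.6 (adjusted p = 0.0366), read 6.39 and 6.16 with siPINC (adjusted p = 0.147), and stood at 13.50, 13.48 and 13.34 on the LeGO-1.0/1.6 arrays against 6.38, 5.92 and 5.92 with LeGO-GFP. In +LH cells it read 4.96, 4.93 and 4.72 with siNEG. The arrays labelled siPINC1.0/1.6 read 5.25, 5.11 and 4.83 and were not lower (log2 difference 0.19, adjusted p = 0.713). With siPINC it read 4.76, 4.20 and 4.15 (-0.50, adjusted p = 0.428). In siNEG cells the probe was lower with hormones by a log2 difference of -2.57 (adjusted p = 1.42e-06). It was well above background on only 2 of 3 siNEG, 2 of 3 siPINC1.0/1.6 and 1 of 3 siPINC +LH arrays. A probe this dim cannot show whether the knockdown held with hormones. LeGO-DCR arrays read 6.07, 6.17 and 5.93, but where the probe lies relative to the deleted regions is not given in the sources used here, so the probe checks nothing about the mutant. All -LH arrays shared a slide with replicate 1 of siNEG +LH and of LeGO-GFP, and the remaining +LH siRNA arrays and the remaining LeGO arrays had a slide each. Of 8 mammary epithelial markers, 7 were well above background on every array.

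Most of the squamous genes were measurable somewhere in this mammary line. Of the 45, 35 passed that background test throughout at least 1 group, and 17 of these on all 24 arrays. Another 3 passed only on scattered arrays (*Sprr2k* on 1, *Sprr4* on 1 and *Dsg1a* on 2) and 7 on none (*Sprr2b*, *Sprr2f*, *Sprr3*, *Dsc1*, *Klk7*, *Scel* and *Rptn*). Over 12 comparisons, 33 genes were called at least once and 19 in 3 or more, as were 58.6% and 31.0% of all genes.

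**Figure D1:**
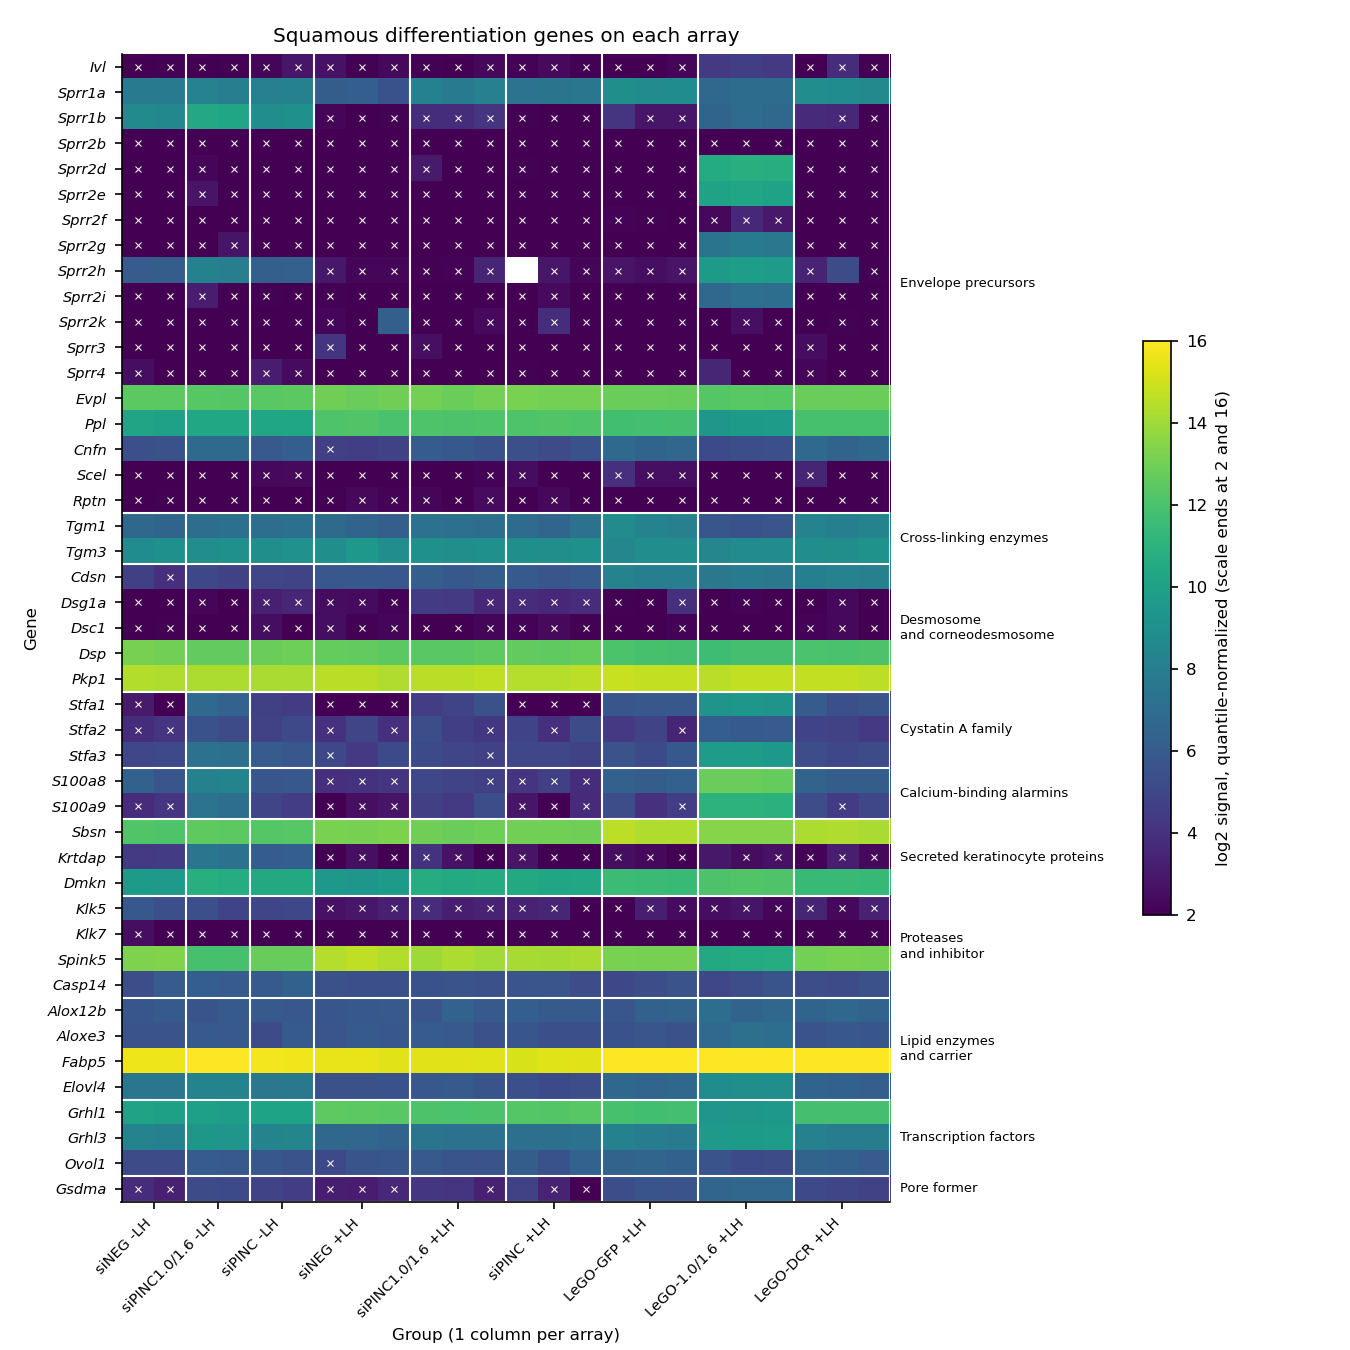
Heat map of the log2 signal of the 45 squamous genes with a probe (rows, grouped by role) on the 24 arrays (columns, by group); the colour scale runs from dark (2) to bright (16), and white crosses mark arrays not well above background. *Sprr2d*, *Sprr2e*, *Sprr2g* and *Sprr2i* are crossed out everywhere but on the 3 LeGO-1.0/1.6 arrays, while 17 rows carry no cross.

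Overexpression of *mPINC1.0* and *mPINC1.6* split the squamous genes. In LeGO-1.0/1.6 cells 18 of 45 genes (40.0%) were raised and 10 (22.2%) lowered relative to the LeGO-GFP cells, against 22.6% higher and 23.1% lower among all 20145 genes, so that the lower share was near the background and the higher share above it. The median log2 difference of the 45 was 0.21, and that of all genes -0.01. The higher genes included 5 members of the *Sprr2* cluster, all 3 stefin A genes and the pair *S100a8* and *S100a9*, and the lower genes included *Tgm1*, *Spink5*, *Grhl1* and *Ppl*. Without LeGO-GFP replicate 1, so that all remaining arrays lay on 1 slide, the count of called genes was again 28.

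The small proline-rich proteins are envelope precursors that transglutaminases cross-link, and their genes lie in a row on chromosome 3 within the epidermal differentiation complex. *Sprr2d* read 10.61, 10.81 and 10.72 on the LeGO-1.0/1.6 arrays, between 1.87 and 1.92 on the LeGO-GFP arrays and 1.89 on each LeGO-DCR array. Only the LeGO-1.0/1.6 arrays passed the background test, and the groups did not overlap. Where no array of a group passed the test, the group's level is only a bound, so the ratio is given as at least the mean of the bright group over the lowest signal that passed on the dim arrays. On that basis *Sprr2d* was at least 103-fold higher than in LeGO-GFP cells (adjusted p = 4.36e-09). *Sprr2e* read 10.08, 10.27 and 10.13, at least 69.8-fold higher (adjusted p = 4.36e-09), and *Sprr2h* 9.60, 9.81 and 9.67, at least 50.7-fold higher (adjusted p = 0.00015). *Sprr2h* was also above background on LeGO-DCR replicate 2, at 5.19, where the other LeGO-DCR arrays read 3.39 and 2.10. *Sprr2g* at 7.39, 7.79 and 7.61 was at least 11.8-fold higher, and *Sprr2i* at 6.69, 7.12 and 7.06 at least 7.59-fold. By contrast *Sprr2b* stayed between 1.86 and 1.88 on the LeGO-1.0/1.6 arrays, and *Sprr2f*, at 2.28, 3.61 and 2.95, passed the background test nowhere and was not called against LeGO-GFP (adjusted p = 0.0551). The *Sprr2* genes, like the stefin A genes, are close copies of each other and the probe sequences were not used here, so the signal of a probe cannot be told apart from cross-hybridization of a close paralog. The fitted log2 difference of *Sprr2d*, 8.82, ranged between 4.74 and 8.87 over the other ways of processing, since background handling sets the level of the dim arrays.

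The 200 bases upstream of the RefSeq start sites of *Sprr* genes are shown because neighboring genes with like promoters differed in their calls against LeGO-GFP. They are from GRCm38.p6, written 5′ to 3′ on the gene's strand, and capitals mark matches to the AP-1 motif TGANTCA and to the octamer ATTTGCAT, which was chosen after the sequences were seen. *Sprr2d* (chr3:92338940-92339139, plus strand), *Sprr2e* (chr3:92351943-92352142, plus), *Sprr2h* (chr3:92385485-92385684, plus) and *Sprr2i* (chr3:92407791-92407990, plus) were raised by LeGO-1.0/1.6, *Sprr2b* (chr3:92316505-92316704, plus) and *Sprr2f* (chr3:92364987-92365186, plus) were not called against LeGO-GFP, *Sprr1b* (chr3:92438780-92438979, minus) was raised and *Sprr1a* (chr3:92485882-92486081, minus) lowered.
Sprr2d: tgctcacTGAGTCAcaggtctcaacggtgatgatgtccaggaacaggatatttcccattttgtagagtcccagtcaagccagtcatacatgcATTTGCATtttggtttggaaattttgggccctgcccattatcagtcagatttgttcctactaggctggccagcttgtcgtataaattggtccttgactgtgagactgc
Sprr2e: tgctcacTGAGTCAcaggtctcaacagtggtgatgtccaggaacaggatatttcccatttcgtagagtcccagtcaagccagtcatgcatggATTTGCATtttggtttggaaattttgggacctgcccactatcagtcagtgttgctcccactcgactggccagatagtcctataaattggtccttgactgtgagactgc
Sprr2h: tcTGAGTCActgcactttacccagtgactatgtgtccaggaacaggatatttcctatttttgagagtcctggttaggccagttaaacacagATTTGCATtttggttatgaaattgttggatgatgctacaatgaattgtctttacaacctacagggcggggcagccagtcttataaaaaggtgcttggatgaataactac
Sprr2i: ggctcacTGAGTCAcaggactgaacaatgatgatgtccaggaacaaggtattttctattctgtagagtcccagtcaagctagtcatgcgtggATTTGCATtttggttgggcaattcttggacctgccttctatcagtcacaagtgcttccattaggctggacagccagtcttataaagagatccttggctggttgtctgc
Sprr2b: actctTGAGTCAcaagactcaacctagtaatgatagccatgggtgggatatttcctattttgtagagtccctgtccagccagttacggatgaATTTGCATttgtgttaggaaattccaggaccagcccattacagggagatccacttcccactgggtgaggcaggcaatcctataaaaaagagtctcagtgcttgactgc
Sprr2f: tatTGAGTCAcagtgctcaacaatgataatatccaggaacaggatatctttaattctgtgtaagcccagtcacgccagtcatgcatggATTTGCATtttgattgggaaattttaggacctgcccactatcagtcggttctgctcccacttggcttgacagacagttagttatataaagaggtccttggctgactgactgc
Sprr1b: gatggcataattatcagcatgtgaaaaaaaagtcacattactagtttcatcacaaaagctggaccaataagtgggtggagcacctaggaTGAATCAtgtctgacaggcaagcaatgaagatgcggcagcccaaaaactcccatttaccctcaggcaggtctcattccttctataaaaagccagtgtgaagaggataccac
Sprr1a: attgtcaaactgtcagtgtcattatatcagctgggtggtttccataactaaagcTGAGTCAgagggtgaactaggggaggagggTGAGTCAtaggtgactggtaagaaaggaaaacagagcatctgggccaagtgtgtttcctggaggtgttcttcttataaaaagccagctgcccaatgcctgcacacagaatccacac
All 6 *Sprr2* windows shown hold 1 AP-1 match and 1 octamer match, among the genes called and not called against LeGO-GFP alike. Any pair of these windows was between 64.8% and 92.0% identical. *Sprr2b* and *Sprr2f*, the genes not called, were at background on every array. For them a lack of response cannot be told apart from a signal too dim to measure. *Sprr2f* was called higher against LeGO-DCR (log2 difference 1.07). In the 250 bases upstream, with both strands searched, 6.75% of 32851 promoters held TGANTCA, as did 16 of the 35 squamous genes with a promoter in the RefSeq table: all 7 *Sprr2* genes listed there and 9 of the 28 others. The octamer was found in 1.6% of all promoters and in the 7 *Sprr2* genes, but in none of the 28 others. The grainyhead motif AACCGGTT, in 0.116% of promoters, matched none of the 35, and the STAT motif TTCNNNGAA, in 7.02%, matched *Tgm1* and *Cdsn*. No AP-1 match overlapped an octamer match in these windows. A match describes these letters and not a bound site. A squamous gene with several start sites counts once, whereas the shares of all promoters count each start site with its own sequence.

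The *Sprr1* pair went in opposite directions. *Sprr1b* read 6.54, 6.91 and 6.75 on the LeGO-1.0/1.6 arrays and 4.17, 2.83 and 2.87 on the LeGO-GFP arrays, of which only replicate 1 was above background (log2 difference 3.44 ± 0.51 SE, adjusted p = 0.00151; between 1.14 and 3.88 over the other ways of processing). All 3 LeGO-1.0/1.6 arrays lay above the controls. *Sprr1a* read 6.73, 6.94 and 6.93 against 8.99, 8.77 and 8.79, and 8.87, 8.79 and 8.57 with LeGO-DCR (-1.99 ± 0.11 against LeGO-GFP, adjusted p = 7.84e-06). Here every LeGO-1.0/1.6 array lay below every control. Involucrin (*Ivl*), the early envelope scaffold, was above background on this probe only in LeGO-1.0/1.6 cells, at 4.32, 4.57 and 4.32 (at least 1.30-fold higher, adjusted p = 0.00577), a call that was lost with the deposited series matrix values (adjusted p = 0.0735). On the second *Ivl* probe, also at background on all LeGO-GFP arrays, it was at least 2.10-fold higher.

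The plakins and the enzyme that builds on them went down. Periplakin (*Ppl*), which pairs with envoplakin to start the envelope at desmosomes, read 9.44, 9.62 and 9.75 in LeGO-1.0/1.6 cells, 11.78, 11.81 and 11.87 in LeGO-GFP cells and 11.90, 11.92 and 11.94 in LeGO-DCR cells. It fell by 2.22 ± 0.08 on the log2 scale (adjusted p = 1.38e-06), with no overlap. Envoplakin (*Evpl*) fell by 0.44 ± 0.05, from a mean of 12.80 to 12.36 (adjusted p = 0.000336). Transglutaminase 1 (*Tgm1*), which cross-links the envelope in keratinocytes, read 5.76, 5.54 and 5.69 against 8.78, 8.26 and 8.09 (-2.71 ± 0.18, adjusted p = 1.92e-05). *Tgm3*, another epidermal transglutaminase, was between 8.47 and 8.77 against 8.46 to 8.87 and was not called. Cornifelin (*Cnfn*), an envelope component, fell by 1.32 ± 0.12 (adjusted p = 0.000116). Of the desmosome genes, corneodesmosin (*Cdsn*), which holds corneocytes together, fell by 0.43 ± 0.10 (adjusted p = 0.0135), and desmoplakin (*Dsp*), which ties desmosomes to keratin, and plakophilin 1 (*Pkp1*), a desmosomal plaque protein, differed by -0.14 ± 0.08 and -0.06 ± 0.06 and were not called.

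The alarmins and stefins, which are also made by myeloid cells and keratinocytes under stress, gave large rises. *S100a8*, the calcium-binding partner of *S100a9* in calprotectin, read 12.82, 12.82 and 12.70 on the LeGO-1.0/1.6 arrays, 6.28, 6.11 and 6.34 on the LeGO-GFP arrays and 6.43, 6.10 and 6.15 on the LeGO-DCR arrays. It rose by 6.54 ± 0.11 (adjusted p = 5.87e-08). *S100a9* read 11.05, 11.03 and 10.97 against 5.30, 4.02 and 4.54, the last not above background (6.40 ± 0.35, adjusted p = 8.08e-06). No control array of either gene came near the LeGO-1.0/1.6 arrays. Stefins of the cystatin A family inhibit cysteine proteases and are envelope precursors in skin; *Stfa3* read 9.70, 9.75 and 9.45 against 5.56, 5.16 and 5.85 (4.11 ± 0.18, adjusted p = 3.03e-06), *Stfa1* rose by 3.50 ± 0.15 and *Stfa2* by 1.85 ± 0.35. Of 8 neutrophil and myeloid markers 6 had a probe, and their summed linear signal was between 14790 and 15430 in LeGO-1.0/1.6 cells and between 13850 and 20640 in LeGO-GFP cells. The leukocyte gene *Ptprc* (log2 difference 0.22, above background on 2 LeGO-1.0/1.6 arrays and 1 LeGO-GFP array) and the neutrophil gene *Mpo* (-0.32, above background on none) were not called, while the lysozyme gene *Lyz2*, above background on 2 LeGO-1.0/1.6 arrays and on no LeGO-GFP array, was called higher and the integrin gene *Itgam* lower (-0.59); the other 2 markers with a probe, *Csf3r* and *Elane*, were not called. HC11 is a mammary epithelial line, and whether any myeloid cells were present or had a part in the result was not tested.

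The remaining roles split as well. The secreted keratinocyte proteins dermokine (*Dmkn*) and suprabasin (*Sbsn*) went apart, with *Dmkn* at 12.10, 12.18 and 12.16 against 11.57, 11.53 and 11.44 (0.63 ± 0.06, adjusted p = 0.000124) and *Sbsn* at 13.47, 13.46 and 13.43 against 14.58, 14.35 and 14.31 (-0.96 ± 0.08, adjusted p = 6.42e-05). *Spink5*, the inhibitor that holds back the kallikreins of skin shedding, read 10.53, 10.60 and 10.65 against 13.18, 13.15 and 13.12 and fell by 2.56 ± 0.05 (adjusted p = 1.51e-07). Its target proteases were at background in these cells: *Klk5* read 2.27 to 2.77 and *Klk7* 1.89 to 1.90 on the LeGO-1.0/1.6 arrays. Among the lipid genes, *Elovl4*, which makes the very long fatty acids of skin ceramides, read 8.83, 8.92 and 8.88 against 6.73, 6.57 and 6.68 (2.22 ± 0.08, adjusted p = 1.29e-06). The lipoxygenase *Aloxe3*, which oxidizes those lipids, rose by 1.44 ± 0.11 and the fatty acid carrier *Fabp5* by 0.66 ± 0.07. The partner lipoxygenase *Alox12b* was not called with its brighter probe (0.54 ± 0.22), while its second probe was lower by 1.92 ± 0.39 (adjusted p = 0.00734), so its probes disagree. *Gsdma*, a gasdermin of skin that forms membrane pores, rose by 1.07 ± 0.11, a call lost in a single fit of all 24 arrays.

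The transcription factors of the program went apart too. *Grhl3*, a grainyhead-like factor required for the skin barrier, read 9.59, 9.63 and 9.73 in LeGO-1.0/1.6 cells and 8.15, 7.89 and 7.82 in LeGO-GFP cells (1.70 ± 0.10, adjusted p = 1.18e-05). Its relative *Grhl1*, which acts on desmosomal genes, read 9.34, 9.41 and 9.48 against 11.90, 11.75 and 11.81 (-2.41 ± 0.06, adjusted p = 2.73e-07). Neither gene's groups overlapped. *Ovol1*, a zinc finger factor of epidermal differentiation, fell by 1.15 ± 0.15 (adjusted p = 0.00079).

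**Figure D2:**
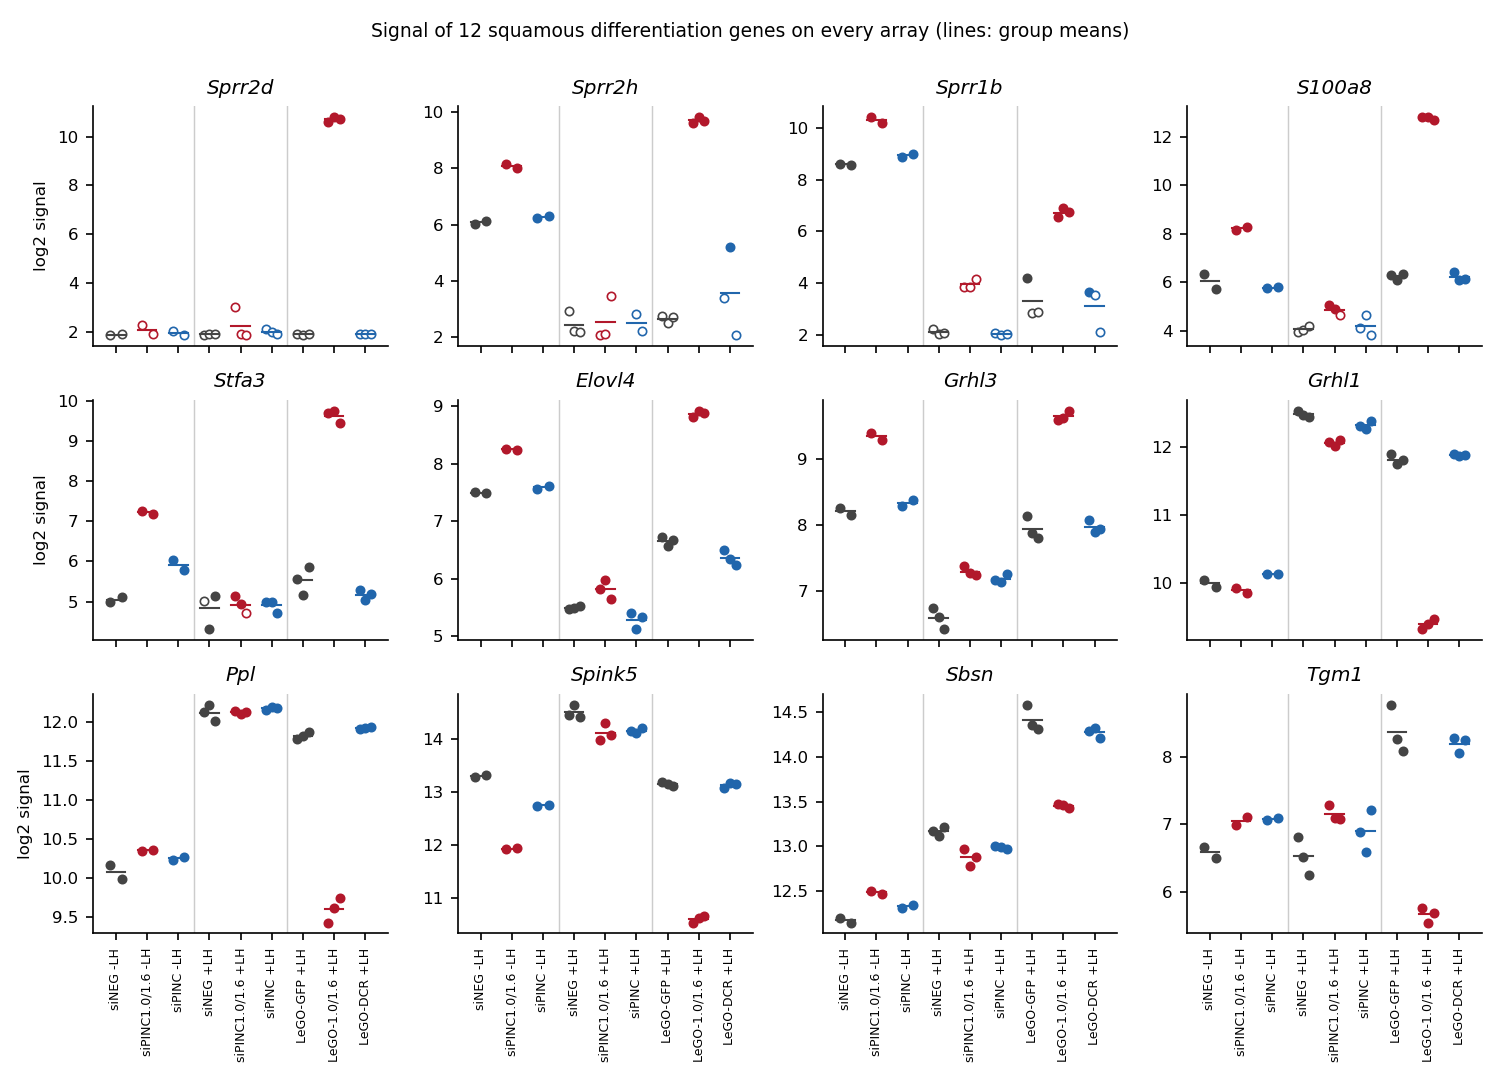
Log2 signal of 12 squamous genes on every array, a panel per gene, with arrays grouped along the x axis, group means as lines, and open points for arrays not well above background. *Sprr2d* rises only on the 3 LeGO-1.0/1.6 arrays, at 10.61 to 10.81, whereas *Grhl1* and *Ppl* are high on +LH arrays other than LeGO-1.0/1.6.

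No squamous gene was called for the deletion mutant. None of 45 was called in LeGO-DCR against LeGO-GFP cells (all genes, 0.0397% called in either direction), and 2 had an unadjusted p under 0.05 (all genes, 4.2%). Those 2 were *Gsdma* (-0.63 ± 0.11, adjusted p = 0.209) and *Elovl4* (-0.30 ± 0.08, adjusted p = 0.646). Over the 45 the differences lay between -0.63 for *Gsdma* and 0.90 for *Sprr2h*, which was at background in LeGO-GFP cells. Against LeGO-DCR, 19 genes (42.2%) were higher in LeGO-1.0/1.6 cells and 10 (22.2%) lower, where 23.0% and 22.5% of all genes were. All 28 genes called against LeGO-GFP were called in the same direction here, in a comparison that shares the LeGO-1.0/1.6 arrays, and *Sprr2f* was added. *Sprr2d* was at least 127-fold higher than in LeGO-DCR cells.

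Marker genes of epithelial and other cell types, read in this epithelial line, moved with these differences. The summed linear signal of the 8 epithelial markers was 47800 to 50600 in LeGO-1.0/1.6 cells against 101400 to 105300 in LeGO-GFP cells, with *Krt5* lower by a log2 difference of -2.76 and *Krt14* by -1.78. The sum of 6 fibroblast markers was 765.3 to 870.8 against 9410 to 11930, with *Dcn* (-4.62) and *Lum* called lower, *Pdgfra* higher (0.96) and the other 3 not called, so that the sum follows its brightest members while the median log2 difference of the 6 was 0.29. The sum of 3 adipocyte markers was 9716 to 10900 against 793.7 to 843.3, with *Fabp4* higher (3.66) and the defining gene *Adipoq* not above background in either group. The part of these shifts in the squamous genes was not tested, and in RNA from whole cultures fewer cells of a type and less RNA per cell cannot be told apart.

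With lactogenic hormones squamous genes were called in both directions, 17 of 45 in all, where 40.8% of all genes were called. The higher share was below that of all genes and the lower share somewhat above it. In siNEG cells 6 of 45 (13.3%) were higher with hormones and 11 (24.4%) lower, against 21.3% and 19.5% of all genes, and the median log2 difference was -0.00 (all genes, 0.02). The 6 higher were *Grhl1*, *Ppl*, *Cdsn*, *Spink5*, *Sbsn* and *Evpl*, and the lower genes included *Sprr1b*, *Sprr2h*, *Klk5*, *Elovl4* and *Grhl3*. Within the slide that held both siNEG -LH arrays and 1 siNEG +LH array, all 17 had the same sign. Fibroblast markers summed to 685.7 to 720.3 without and 3824 to 4406 with hormones, with 3 of 6 higher (*Dcn* by 6.98) and 2 lower (*Col1a1* at -2.94 and *Col1a2* at -1.86). Epithelial markers summed to 189200 to 194600 and 96690 to 110700, with 3 of 8 higher, among them *Krt18* (1.40), and 3 lower, among them *Krt5* (-2.72). The part of these markers was not tested.

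*Grhl1* read 10.05 and 9.95 without hormones and 12.54, 12.47 and 12.44 with them (2.48 ± 0.06, adjusted p = 6.54e-10). *Ppl* rose from 10.17 and 9.99 to 12.13, 12.22 and 12.00 (2.03 ± 0.07, adjusted p = 6.33e-09), and *Spink5* from 13.28 and 13.32 to 14.46, 14.65 and 14.41 (1.21 ± 0.10, adjusted p = 3.23e-06). In all 3 genes every +LH array lay above every -LH array. *Cdsn* rose by 1.50 ± 0.19, *Sbsn* by 0.99 ± 0.06 and *Evpl* by 0.46 ± 0.08.

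On the falling side, *Sprr1b* went from 8.63 and 8.56 to 2.20, 2.02 and 2.08, which is background, at least 20.7-fold lower (adjusted p = 1.14e-10). *Sprr2h* went from 6.02 and 6.13 to 2.92, 2.21 and 2.18, at least 3.62-fold lower (adjusted p = 8.26e-05), and *Klk5*, a shedding protease, from 5.78 and 5.41 to 2.71, 2.90 and 3.22, at least 2.59-fold lower (adjusted p = 0.000402). The +LH arrays of these genes were all at background. *Sprr1a* fell from 7.72 on both -LH arrays to 6.12, 6.19 and 5.53 (-1.77 ± 0.18, adjusted p = 2.07e-05) and remained measurable. *Elovl4* fell from 7.50 and 7.49 to 5.48, 5.49 and 5.52 (-2.00 ± 0.10, adjusted p = 7.82e-08), and *Grhl3* from 8.26 and 8.16 to 6.75, 6.61 and 6.44 (-1.61 ± 0.09, adjusted p = 2.48e-07). *S100a8* was at least 3.08-fold lower with hormones, and *Krtdap*, a secreted keratinocyte protein, at least 1.13-fold. *S100a9* was called lower too, with neither group well above background, so that no fold is given, and the call was lost in 6 of 23 alternatives. *Cnfn* fell by 0.81 ± 0.15 and *Dsp* by 0.49 ± 0.08.

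The hormone and the LeGO comparisons share no array, and their calls can be set side by side. Of the 17 genes called for hormones 14 were called for LeGO-1.0/1.6, as were 14 of the 28 the other way round, and for all genes the shares were 73.6% and 65.8%. All 6 genes raised by hormones were lower in LeGO-1.0/1.6 cells, as were 60.9% of all hormone-raised genes. Of the 11 lowered by hormones, 6 were higher in LeGO-1.0/1.6 cells (*Elovl4*, *Grhl3*, *S100a8*, *S100a9*, *Sprr1b* and *Sprr2h*), *Cnfn* and *Sprr1a* were lower there, and *Dsp*, *Klk5* and *Krtdap* were not called; of all hormone-lowered genes 58.2% were higher and 14.3% lower there. Opposite calls were thus the more frequent ones over the whole array and not particular to the squamous genes. *Sprr2d*, *Sprr2e*, *Sprr2g* and *Sprr2i* were at background in siNEG cells with and without hormones.

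**Figure D3:**
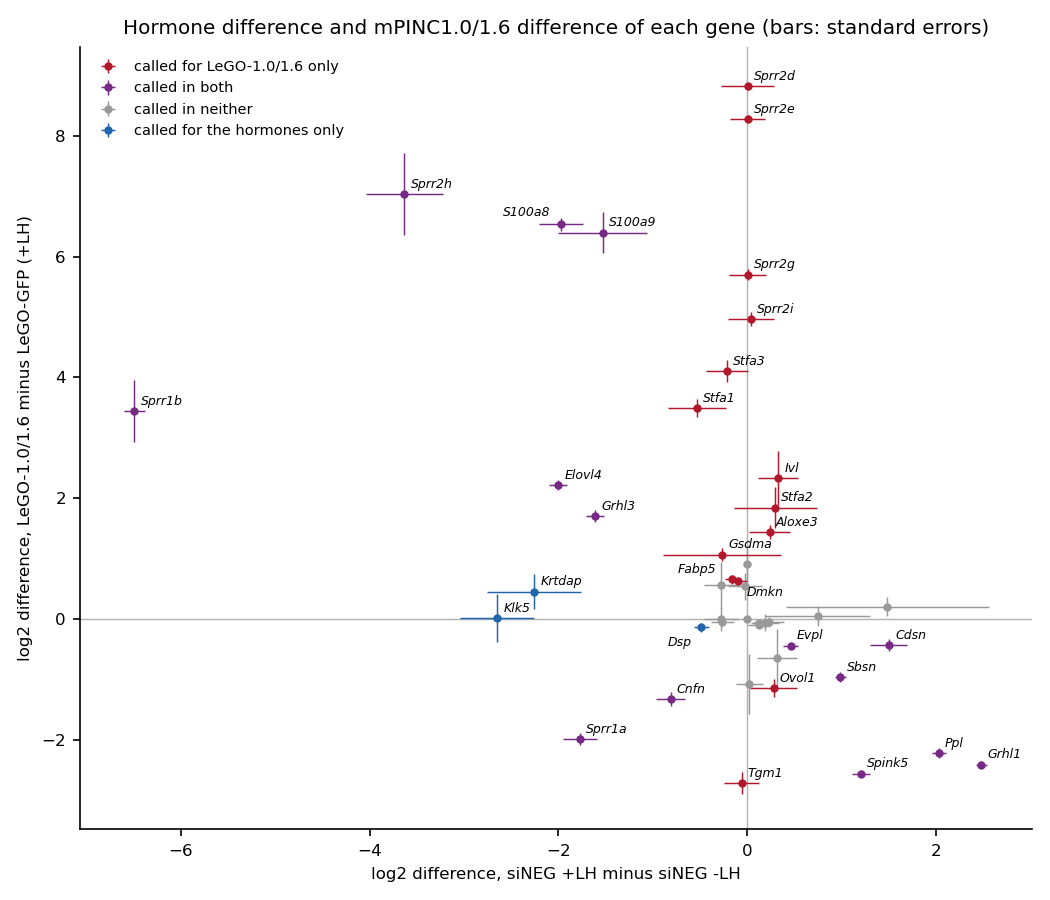
Log2 difference of each of the 45 squamous genes between siNEG +LH and siNEG -LH cells (x axis) and for LeGO-1.0/1.6 minus LeGO-GFP (y axis), with standard errors as bars and colour by the comparison in which the gene was called. *Grhl1*, *Ppl*, *Spink5*, *Sbsn*, *Cdsn* and *Evpl* lie at the lower right, raised by hormones and lower in LeGO-1.0/1.6 cells; values fitted to arrays at background are not bounds.

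Without hormones, squamous genes were called higher with siPINC1.0/1.6 more often than genes at large. The *mPINC* probe differed from siNEG by -1.11 with siPINC1.0/1.6 and by -1.17 with siPINC. With siPINC no squamous gene was called without hormones, and neither was any of all 20145 genes (0.0%). An effect of the siRNA set other than on *mPINC* was not tested. In siPINC1.0/1.6 -LH cells 12 of 45 genes (26.7%) were higher and 1 (2.22%) lower than in siNEG cells, against 2.65% and 2.62% of all genes, and the median log2 difference of the 45 was 0.37 (all genes, -0.00). The higher genes were *Stfa1*, *Stfa3*, *S100a8*, *S100a9*, *Krtdap*, *Dmkn*, *Sprr1b*, *Sprr2h*, *Cnfn*, *Grhl3*, *Elovl4* and *Gsdma*. All these calls rest on 2 arrays per group: without siNEG replicate 1 a single gene was called, without any other of the 6 arrays 0, and 7 with normalization to the 75th percentile or with the series matrix values. None of the 8 epithelial or of the 6 measured myeloid markers was called in this comparison. Fibroblast markers summed to 387.2 to 408.6 with siPINC1.0/1.6 and 685.7 to 720.3 with siNEG, with 2 of 6 higher and 2 lower, and their part was not tested.

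*S100a9* read 7.36 and 7.04 with siPINC1.0/1.6 and 3.78 and 4.14, at background, with siNEG, at least 8.54-fold higher (adjusted p = 0.0287), and 4.93 and 4.54 with siPINC. *S100a8* read 8.16 and 8.30 against 6.35 and 5.71 (2.20 ± 0.23, adjusted p = 0.0399), and 5.76 and 5.79 with siPINC. *Krtdap* read 7.50 and 7.21 against 4.37 and 4.43 (2.96 ± 0.12, adjusted p = 0.0195), with siPINC between them at 6.06 and 6.21. In each of the 3 genes both siPINC1.0/1.6 arrays lay above both siNEG arrays. *Sprr2h* read 8.14 and 8.01 against 6.02 and 6.13 (2.00 ± 0.08, adjusted p = 0.0188), and *Sprr1b* 10.43 and 10.21 against 8.63 and 8.56 (1.73 ± 0.11, adjusted p = 0.0287). *Grhl3* read 9.40 and 9.29 against 8.26 and 8.16 (1.14 ± 0.08, adjusted p = 0.0291). With siPINC these 3 genes stayed within 0.35 of siNEG. *Spink5* was the gene called lower, at 11.92 and 11.93 against 13.28 and 13.32 (-1.38 ± 0.05, adjusted p = 0.0188), with siPINC between at 12.74 and 12.76. *Stfa3* rose by 2.18 ± 0.11, *Cnfn* by 1.33 ± 0.13, *Dmkn* by 1.13 ± 0.08 and *Elovl4* by 0.75 ± 0.05. The second *Elovl4* probe, above background on all arrays of both groups, was not called (0.19 ± 0.38, adjusted p = 0.940), and its groups overlapped. *Stfa1* and *Gsdma*, at background in siNEG cells, were at least 5.73-fold and 2.13-fold higher.

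The siRNAs against all splice forms gave no call without hormones, in a comparison with the same siNEG arrays. None of 45 genes passed for siPINC against siNEG (all genes, 0.0%; smallest adjusted p = 0.139), while 15 had an unadjusted p under 0.05 (all genes, 13.1%), among them *Krtdap* (1.73 ± 0.12). None passed for siPINC1.0/1.6 against siPINC (all genes, 0.0397%), where 19 had an unadjusted p under 0.05 (all genes, 20.4%). The differences between the siRNA sets reached 2.46 ± 0.22 for *S100a9* (adjusted p = 0.0724) and 2.45 ± 0.23 for *S100a8* (adjusted p = 0.076). That comparison depended on the processing, with 11 genes called after normexp background correction and 10 in a single fit of all arrays.

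With hormones, the arrays labelled siPINC1.0/1.6 had 8 genes (17.8%) higher and 1 (2.22%) lower than siNEG, against 3.91% and 2.5% of all genes. *Sprr1a* read 8.14, 7.83 and 8.12 against 6.12, 6.19 and 5.53 (2.08 ± 0.18, adjusted p = 0.00188), and 7.35, 7.38 and 7.51 with siPINC (1.47 ± 0.18, adjusted p = 0.0275). Both siRNA groups, which have an siRNA in common and were compared with the same siNEG arrays, lay above every siNEG array. *Stfa1* came above background at 4.57, 4.88 and 5.46 where siNEG read 1.95, 1.89 and 1.92 and siPINC 1.89, 2.02 and 1.90 (at least 1.68-fold higher, adjusted p = 0.000717). *Dmkn* read 10.65, 10.55 and 10.63 against 9.49, 9.37 and 9.65 (1.11 ± 0.09, adjusted p = 0.00141), and 10.51, 10.26 and 10.37 with siPINC (0.88 ± 0.09, adjusted p = 0.0154). *Cnfn* rose by 1.17 ± 0.14 and *Grhl3* by 0.70 ± 0.09, and *Grhl1* was the gene called lower, by -0.42 ± 0.05 (adjusted p = 0.00913). *S100a9* was at least 1.49-fold higher, a call lost in 9 of 17 alternatives, and the call of *Dsg1a*, a desmosomal cadherin above background on 2 of the 3 siPINC1.0/1.6 arrays at 4.45 and 4.36, was lost in 3. *Sprr1b* was called with neither group well above background. The count was 8 on the single slide left without siNEG replicate 1, and 6 genes (*Cnfn*, *Dmkn*, *Grhl3*, *S100a9*, *Sprr1b* and *Stfa1*) were called higher both with and without hormones, which is 6 of the 12 called higher without them; of all genes called higher without hormones 28.0% were also called higher with them.

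With siPINC in +LH cells 3 genes (6.67%) were higher and none lower, against 1.11% and 0.243% of all genes: *Sprr1a*, *Dmkn* and *Grhl3* (0.60 ± 0.09, adjusted p = 0.0426). The count was 0 with normalization to the 75th percentile, with a term for the slide, and without siNEG replicate 1 or 2 or siPINC replicate 1 or 3, and 1 without siPINC replicate 2 or siPINC1.0/1.6 replicate 1 or 2. Against siPINC, the arrays labelled siPINC1.0/1.6 were higher in *Stfa1* (at least 2.04-fold, adjusted p = 0.00546) and *Sprr1b* (both groups at background, adjusted p = 0.00546), which is 4.44% of the 45, against 0.943% of all genes, and in none lower (all genes, 0.849%). Both calls were absent with normalization to the 75th percentile.

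**Figure D4:**
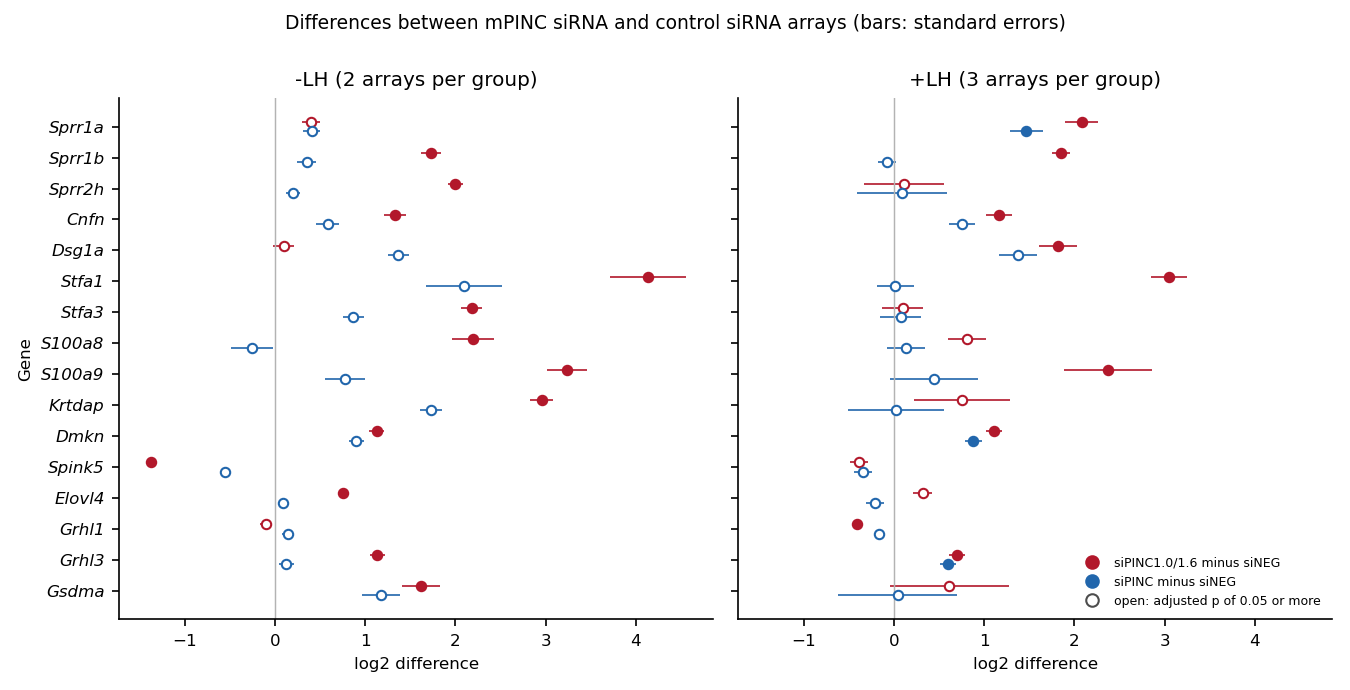
Log2 difference from siNEG, with its standard error, of 16 squamous genes for siPINC1.0/1.6 (red) and siPINC (blue), without hormones in the left panel (2 arrays per group) and with hormones in the right (3 arrays per group); filled points had an adjusted p under 0.05. *S100a8*, *Stfa3*, *Krtdap* and *Sprr2h* have filled siPINC1.0/1.6 points on the left, and *Sprr1a* has them on the right for both siRNA sets.

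Whether the difference between siPINC1.0/1.6 or siPINC and siNEG changed with hormones was tested by an interaction term. A limit is that the +LH arrays labelled siPINC1.0/1.6 did not read lower for *mPINC*, whose probe was near background there. For siPINC1.0/1.6, 3 of 45 genes (6.67%) had a more positive difference from siNEG with hormones and 3 (6.67%) a more negative one, against 4.1% and 2.02% of all genes. *Sprr1a*, *Dsg1a* and *Spink5* were of the first kind and *Stfa3*, *Sbsn* and *Fabp5* of the second. *Stfa3* had risen by 2.18 without hormones and differed by 0.10 with them (interaction -2.08 ± 0.31, adjusted p = 0.00492), while *Sprr1a* differed by 0.40 without and rose by 2.08 with them (1.68 ± 0.25, adjusted p = 0.00497). *S100a8* (-1.39 ± 0.34, adjusted p = 0.0567) and *Krtdap* (-2.20 ± 0.71, adjusted p = 0.171) were not called in this test; their siNEG +LH arrays were at background. For siPINC none was called (all genes, 0.869%), and 10 had an unadjusted p under 0.05 (all genes, 10.7%).

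The siPINC1.0/1.6 -LH and LeGO comparisons share no array and can be set side by side. Of the 12 genes called higher with siPINC1.0/1.6 -LH, 10 were also higher in LeGO-1.0/1.6 cells, *Cnfn* was lower and *Krtdap* was not called, while *Spink5* was lower in both. Of all genes called higher with siPINC1.0/1.6 -LH 70.2% were higher in LeGO-1.0/1.6 cells, and of those called lower 74.6% were lower. These 11 genes with the same direction are 11 of 13 knockdown calls and 11 of 28 LeGO calls. In +LH cells, 5 of the 8 genes higher on the arrays labelled siPINC1.0/1.6 were also higher with LeGO-1.0/1.6, *Cnfn* and *Sprr1a* were lower, *Dsg1a* was not called, and *Grhl1* was lower in both; of all genes higher on those arrays 67.3% were higher with LeGO-1.0/1.6.

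Other genes of the same pathways, listed by role, moved in part alongside. Of 31 measured envelope and epidermal differentiation complex genes outside the 45, 12 were raised and 4 lowered by LeGO-1.0/1.6. For all genes the shares were 22.6% higher and 23.1% lower with LeGO-1.0/1.6 and 21.3% and 19.5% with hormones, and the counts of the 5 lists are to be read against them. The 12 included late cornified envelope genes, whose products are added to the envelope last. *Lce1g* was between 8.40 and 8.65 on the LeGO-1.0/1.6 arrays and at background on all others (at least 22.3-fold higher than LeGO-GFP, adjusted p = 1.34e-07), *Lce1c* was at least 26.5-fold higher, and *Crct1* rose by 4.52 ± 0.18. With hormones 5 of these 31 genes were lower and none higher, led by *S100a14* (-3.06 ± 0.14). Of 10 other desmosome genes 1 was higher and 5 lower with LeGO-1.0/1.6 and 4 were higher and 3 lower with hormones; *Perp*, a desmosomal membrane protein, was at -1.45 and 2.18. Of 11 other epidermal proteases and inhibitors 2 were higher and 4 lower with LeGO-1.0/1.6 and 3 higher and 2 lower with hormones; *Prss8*, a membrane protease of the barrier, was at -2.21 and 1.81. Of 13 other barrier lipid genes 5 were higher and 4 lower with LeGO-1.0/1.6, and the epidermal lipase *Lipk* fell by 4.54 ± 0.07. Of 14 other squamous transcription factors 4 were higher and 10 lower with LeGO-1.0/1.6 and 3 higher and 8 lower with hormones; *Zfp750*, a switch of late epidermal differentiation, was at -1.85 and 2.51, and *Klf4*, a barrier factor, at 0.42 and -0.81. With siPINC1.0/1.6 each of these 5 short lists held at most 4 calls without hormones and at most 3 with them. Without hormones 2 of 13 barrier lipid genes were higher and 2 lower (15.4% each). Of 11 proteases and inhibitors 2 were higher and 2 lower (18.2% each). Of 14 transcription factors 1 was higher (7.14%) and 3 lower (21.4%), against 2.65% and 2.62% of all genes. Of the 31 envelope genes 3 were higher (9.68%) and none lower, and no desmosome gene was called. With hormones 14.3% of the transcription factors were higher and 7.14% lower, against 3.91% and 2.5% of all genes. The higher shares were 15.4% for lipid genes, 9.09% for proteases and inhibitors and 6.45% for envelope genes. The lower shares were 9.09% for proteases and inhibitors and 10.0% for desmosome genes. The other shares with hormones were 0.0%. None of the lists held a call for LeGO-DCR (all genes, 0.0397%).

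**Figure D5:**
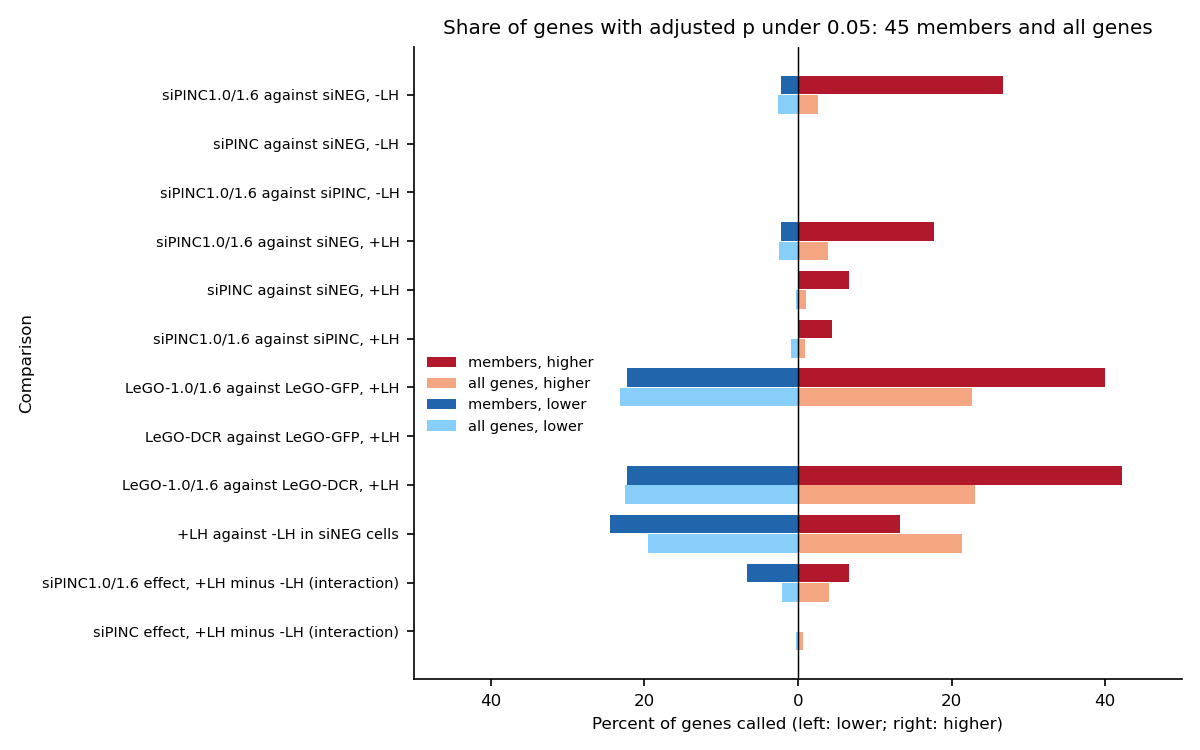
Percent of the 45 squamous genes (dark red and blue bars) and of all 20145 genes (light bars) called higher (right of 0) and lower (left of 0) in each of the 12 comparisons. The members' share of higher calls is above that of all genes for siPINC1.0/1.6 -LH (26.7% and 2.65%) and LeGO-1.0/1.6 against LeGO-GFP (40.0% and 22.6%), and below it for hormones (13.3% and 21.3%).

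The 12 genes called in no comparison were of 3 kinds. *Sprr2b*, *Sprr3*, *Dsc1*, *Klk7*, *Scel* and *Rptn* were at background on every array, and *Sprr2k* and *Sprr4* on all but 1. *Sprr2k* passed on siNEG +LH replicate 3 alone, at 6.26. *Tgm3*, *Pkp1*, *Casp14*, a caspase of cornification, and *Alox12b* were measured on all 24 arrays: *Pkp1* stayed between 14.21 and 14.80, and *Casp14* between 4.98 and 6.35. For *Alox12b* this holds for the brighter probe only. Its second probe was called lower with LeGO-1.0/1.6 against LeGO-GFP and against LeGO-DCR (-1.59 ± 0.39, adjusted p = 0.0179). With hormones that probe was at least 2.52-fold lower (adjusted p = 0.0290), with all siNEG +LH arrays at background. A value was missing for *Sprr2h* on siPINC +LH replicate 1, whose spot was flagged as an outlier, so its fits there use 2 arrays.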

How the data were processed

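Total RNA was labelled with Cy3 and hybridized to Agilent 8x60K mouse arrays, and the deposited intensity values came from the submitters' Feature Extraction software (version 11.0.1.1), which subtracted the background. From the deposited intensity, log2 values were taken and arrays quantile normalized, as in the study's methods. Outlier spots (146 to 644 per array) were then left out. The series matrix, which the authors deposited, ranked probes as the median signal minus local background and served as an alternative. RefSeq accessions named 26582 probes; 1534 were not matched. limma 3.58.1 in R 4.3.3 was fitted to the -LH siRNA, +LH siRNA, LeGO and all siRNA arrays, each group against its control without covariates, and checked on simulated data. Groups were taken from the sample labels; the 2 or 3 arrays of a group are biological replicates by the methods, and their number limits the precision. Named genes are all genes called in a comparison or named by role. The members, gene lists and tests were chosen with earlier results of these data known. Promoter sequences are from RefSeq tables for GRCm38.p6.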

Additional observations from a re-analysis of the deposited data

Results flagged for a closer look

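The log2 difference between siPINC1.0/1.6 and siNEG cells depended on the hormones for 6 squamous genes, by the interaction term of the limma fit of all siRNA arrays. With hormones it was higher by 1.68 for *Sprr1a*, by 1.72 for *Dsg1a* and by 0.98 for *Spink5*. It differed by -2.08 for *Stfa3*, by -0.60 for *Sbsn* and by -0.55 for *Fabp5*. *Dsg1a* was not well above background in any -LH array, and its interaction was not called after normexp background correction, with the 75th percentile or series matrix values or in 1 fit of all 24 arrays; that of *Fabp5* was lost with the series matrix values, a replicate block, and without siNEG -LH replicate 2 or siPINC1.0/1.6 -LH replicate 1. The *mPINC* probe itself had an interaction of 1.31 (adjusted p = 0.0223), with its +LH siRNA arrays near background.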

How the results depend on the processing

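Alternatives were the 75th percentile, normexp, bright probes only, the series matrix values, the methods' t-test, 1 fit of all 24 arrays, a slide block, a replicate block and leaving out each array. No gene reversed. With 28 genes called for LeGO-1.0/1.6 against LeGO-GFP and 17 for hormones, no alternative moved the count by over 1.5 times (28 to 29 and 16 to 18 without 1 array). For siPINC1.0/1.6 -LH, 13 became 7 with the 75th percentile or series matrix values, 0 with the t-test and 0 to 1 without 1 array. For siPINC -LH, 0 became 2 with normexp and 3 in 1 fit of all arrays; against siPINC1.0/1.6, 0 became 11, and 10 in that fit or with bright probes. For siPINC1.0/1.6 +LH, 9 became 4 with the t-test and 14 in 1 fit. For siPINC +LH, 3 became 0 with the 75th percentile, t-test or slide block, 5 in 1 fit and 0 to 2 without 1 array; against siPINC1.0/1.6, 2 became 0 with the first 2 of these, 4 with normexp and 6 in 1 fit. The siPINC1.0/1.6 interaction count, 6, became 13 with normexp; that of siPINC, 0, became 1 with bright probes or without a siNEG -LH array (0 to 1 without 1 array) and 2 in 1 fit. The causes were not tested. Labels number the replicates, but same-numbered arrays deviated together weakly or not at all (r between -0.44 and 0.22), and they were not treated as pairs. That r was between 0.05 and 0.13 for the -LH arrays and between -0.01 and 0.22 for the LeGO arrays. A replicate block took the counts of siPINC1.0/1.6 -LH, of siPINC +LH and of their +LH comparison to 0 and left 28 for LeGO-1.0/1.6 and 17 for hormones. By the methods' thresholds (unadjusted p under 0.01, fold above 1.8) the t-test gave 9 genes for siPINC1.0/1.6 -LH, 7 with hormones, 23 for LeGO-1.0/1.6 and 12 for hormones. The 75th percentile moved the median of all genes by 0.185 between hormone states. Dim probes limit folds, which are bounds for most *Sprr2* genes, and cost calls: *Ivl* with LeGO-1.0/1.6 was lost with the series matrix values, *Dsg1a* in +LH cells there and with normexp.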

Other observations

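Some epidermal genes outside the 45 that were listed by pathway are given here as values. *S100a14*, a calcium-binding protein gene, was called higher by limma in LeGO-1.0/1.6 cells (log2 difference 0.58 ± 0.06, adjusted p = 0.000214) and with siPINC1.0/1.6 both without hormones (0.59 ± 0.06, adjusted p = 0.0397) and with them (1.42 ± 0.14, adjusted p = 0.00318). *Tfap2c*, a transcription factor of skin and mammary epithelium, was lower in the same 3 comparisons, by -2.08 ± 0.05, -1.14 ± 0.08 and -0.24 ± 0.05. *Lce3c*, a late cornified envelope gene, was at least 12.0-fold higher in LeGO-1.0/1.6 cells and at least 1.45-fold higher with siPINC1.0/1.6 without hormones, where siNEG arrays were at background. *Klk6*, an epidermal kallikrein, was at least 3.03-fold lower with hormones and rose by 1.17 ± 0.14 with siPINC1.0/1.6 without them (adjusted p = 0.0446). *Cebpb* was higher in LeGO-1.0/1.6 cells by 0.76 ± 0.05 and lower with hormones by a difference of -1.23 ± 0.07, while *Hopx* was lower in both, at -2.95 ± 0.26 and -1.25 ± 0.13.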
